A study of Mus musculus with 2 samples.

Results

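The 10 genes Trp53, Mdm2, Cdkn1a, Ccng1, Bax, Bbc3, Pmaip1, Phlda3, Ddit3 and Atf4 were followed through single-cell RNA-seq of cranial neural crest cells (CNCCs). They comprise the gene of the p53 transcription factor, genes it is known to switch on, and 2 genes of the cell stress response, and were found by symbol among the 32285 genes of the count tables. The 10 symbols matched 11 entries, because Ddit3 is listed under 2 overlapping identifiers. The second of these, ENSMUSG00000116429, had 0 UMIs in every barcode, so Ddit3 stands below for ENSMUSG00000025408. UMIs, random tags added to each captured transcript before PCR, let copies of 1 molecule be counted once.

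Cells came from mouse embryos at E11.5. The control library (Tfap2HET) held cells of genotype Tfap2a wt/flox and Tfap2b wt/flox, and the mutant library (Tfap2NCKO) cells of genotype Tfap2a flox/flox and Tfap2b flox/flox. All embryos also carried r26 mTmG/mTmG, a reporter that turns from red to green membrane fluorescence after recombination, and Wnt1CRE, which is active in the dorsal neural tube, where the crest arises. Green cells were sorted from heads rostral to the otic placode, so the libraries hold neural crest derivatives together with labelled brain cells, and no unlabelled cell. In each group, 2 embryos were pooled into 1 library, and no error between embryos could be estimated.

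p53 is kept scarce by Mdm2, a ubiquitin ligase whose own gene p53 activates. When DNA damage or faulty ribosome assembly releases p53, it drives genes that halt the cell cycle (Cdkn1a), a cyclin that feeds back on Mdm2 (Ccng1), genes of the BCL-2 death pathway (Bax, Bbc3 and Pmaip1) and an inhibitor of AKT signalling (Phlda3). Atf4 and Ddit3 belong to the integrated stress response, in which ATF4 protein is made when general translation is slowed and then activates Ddit3, whose product CHOP can promote cell death. Neural crest cells are known to be sensitive to raised p53 activity.

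The control library gave 82313680 UMIs in 5625 kept cells and the mutant library 77251738 UMIs in 5587 kept cells. Clusters were formed without the 10 genes, and were named from marker lists. The mesenchyme-like class held 3791 control and 2853 mutant cells and had 6 of 6 mesenchyme markers above the other cells, the neuron-like class 794 and 1282 cells with 9 of 9, the brain progenitor-like class 780 and 1252 cells with 9 of 9, and the glia-like class 260 and 200 cells with 7 of 7. In the mesenchyme-like class the targeted genes were still detected in the mutant library, Tfap2a with 19.3 CPM in the control and 13.4 CPM in the mutant library and Tfap2b with 56.6 and 48.1 CPM. CPM is the number of UMIs of a gene per 1000000 UMIs of the cells concerned. A 3′ library counts transcript ends, so these values do not tell intact from recombined alleles. Xist had 1260 CPM in kept control cells and 0.0777 CPM in kept mutant cells, and 4 Y-linked genes together had 0.0243 and 153.3 CPM. The effects of genotype and sex therefore cannot be told apart. The libraries shared 6 cell barcodes. Brackets hold 95% intervals for counting error only.

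The promoters are shown first because p53 is known to act on its targets through short sites in DNA. RefSeq promoters of GRCm38.p6, from 250 bases before to 50 bases after a transcript start, were given for 9 of the 10 genes, 12 promoters in all. A p53 half-site by its usual degenerate pattern was searched on both strands and was held by 8.36% of the 32851 promoters of that length. Among the 10 genes it was found in those of Trp53, Mdm2, Cdkn1a, Ccng1 and Bax. Each is printed with 10 bases on either side and with the half-site in capitals.
Cdkn1a, chr17:29090896-29090925, plus strand: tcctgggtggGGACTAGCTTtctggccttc
Cdkn1a, chr17:29090918-29090947, plus strand: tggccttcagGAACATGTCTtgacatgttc
Mdm2, chr10:117710925-117710954, minus strand: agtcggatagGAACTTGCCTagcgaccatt
Ccng1, chr11:40755452-40755481, minus strand: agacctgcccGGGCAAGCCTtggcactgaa
Bax, chr7:45467080-45467109, minus strand: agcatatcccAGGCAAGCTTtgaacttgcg
Trp53, chr11:69580274-69580303, plus strand: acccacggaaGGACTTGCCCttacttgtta

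The Cdkn1a half-sites lay from -73 to -64 and from -51 to -42 relative to the start of 1 of its 2 promoters. They were the only pair in the 12 promoters with at most 13 bases between them, a full p53 site, which was held by 24 or 0.0731% of the 32851 promoters. The letters TGATGNAA, an element known to be read by ATF4, occurred on either strand in 3.97% of all promoters and in none of the 12. The ER stress element by its usual pattern occurred in 0.119% and in none of the 12. Only exact matches were counted, so an element that departs from its pattern by a base would be missed. Such matches describe the sequence and do not show binding.

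The next question was where each gene was expressed. Trp53 (GRCm38 chromosome 11, 69580359 to 69591873) was highest in mesenchyme-like cells, with 246 CPM in the control and 226 CPM in the mutant library, followed by glia-like cells with 220 and 196 CPM and brain progenitor-like cells with 191 and 180 CPM. Neuron-like cells were lowest, with 110 CPM (103 to 117) and 99.7 CPM (94.7 to 105). Neighbours in this order had separate intervals in the control library, and in the mutant library those of glia-like and brain progenitor-like cells overlapped. In the scored cell cycle phases of the mesenchyme, Trp53 had 269 CPM in S phase and 228 CPM in G1 in the control library, and 253 and 201 CPM in the mutant library. Its lowest class was thus the one of postmitotic cells, and its highest phase that of DNA replication, in both libraries.

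Mdm2 (chromosome 10, 117688875 to 117710758) went the other way. It had 70.1 CPM in control and 69.7 CPM in mutant neuron-like cells, against 40.6 and 39.4 CPM in mesenchyme-like cells. The log2 ratio of neuron-like over mesenchyme-like cells was 0.79 (0.66 to 0.92) in the control and 0.82 (0.71 to 0.94) in the mutant library. Brain progenitor-like cells came between, with 45.9 and 50.2 CPM, and glia-like cells, with 35.0 and 40.1 CPM, overlapped with mesenchyme-like cells in both libraries.

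Cdkn1a (chromosome 17, 29090976 to 29100727), which encodes the p21 inhibitor of cyclin-dependent kinases, differed most between the classes. It had 1.22 CPM in control and 3.19 CPM in mutant mesenchyme-like cells, 7.51 and 15.7 CPM in glia-like cells, 11.49 and 18.4 CPM in brain progenitor-like cells and 22.7 and 30.1 CPM in neuron-like cells. Neuron-like cells thus lay above mesenchyme-like cells by 18.7-fold in the control and 9.44-fold in the mutant library. This level came from few cells. Of neuron-like cells scored as G1, 64 of 723 control and 122 of 1173 mutant cells had a Cdkn1a UMI. The 10 richest of these held 51.6% and 37.4% of the Cdkn1a UMIs. The order of the 4 classes was the same in both libraries, although the intervals of glia-like and brain progenitor-like cells overlapped. Bbc3 (chromosome 7, 16308393 to 16318205), which encodes the BH3-only death activator PUMA, had 33.1 and 29.5 CPM in neuron-like cells and 8.13 and 9.12 CPM in mesenchyme-like cells, a difference of 4.08-fold and 3.23-fold. Among the neural clusters Bbc3 was highest in the sensory ganglion neuron-like cells of the control library, with 62.1 CPM from 39 UMIs.

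Ccng1 (chromosome 11, 40748552 to 40755311), the cyclin G1 gene, and Ddit3 (chromosome 10, 127290774 to 127296288) were also higher in neuron-like than in mesenchyme-like cells. Ccng1 had 25.02 CPM in control and 29.4 CPM in mutant neuron-like cells and 12.1 and 14.95 CPM in mesenchyme-like cells. Ddit3 had 13.3 and 7.40 CPM in neuron-like and 6.61 and 4.32 CPM in mesenchyme-like cells. In all, 5 of the 10 genes, Mdm2, Cdkn1a, Ccng1, Bbc3 and Ddit3, were higher by 1.5-fold or more in neuron-like cells in both libraries, against 23.5% of all 12087 genes tested. A further 3, Trp53, Pmaip1 and Phlda3, were lower by that margin in both, against 23.2% of all genes. Pmaip1 had 1.43 and 1.90 CPM in neuron-like cells, from 13 and 28 UMIs. The larger mesenchyme clusters other than the frontonasal-like one, described below, had less, 0.740 and 0.662 CPM. The genes tested had at least 100 UMIs over the compared cells in each library.

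Bax (chromosome 7, 45461697 to 45466898), which encodes the protein that opens the mitochondrial outer membrane, and Atf4 (chromosome 15, 80255184 to 80257541) varied least. Bax ranged from 196 CPM in control mesenchyme-like cells to 268 CPM in control neuron-like cells. Atf4 ranged from 80.8 CPM in mutant glia-like cells to 123.5 CPM in control brain progenitor-like cells. Neither passed 1.5-fold between neuron-like and mesenchyme-like cells. Against brain progenitor-like cells, Cdkn1a, Bbc3 and Ddit3 were higher in neuron-like cells by 1.5-fold or more in both libraries, 3 of the 9 genes tested against 20.3% of all genes, and Trp53 and Phlda3 were lower, 2 of 9 against 20.5%. Bax shares its locus with Gm45808 on the same strand, Ddit3 lies across Mars and Gm4189 on the opposite strand and Cdkn1a across AC167363.2 on the opposite strand, so counts of these 3 genes are uncertain where reads could be split or where strand was not used.

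**Figure D1:**
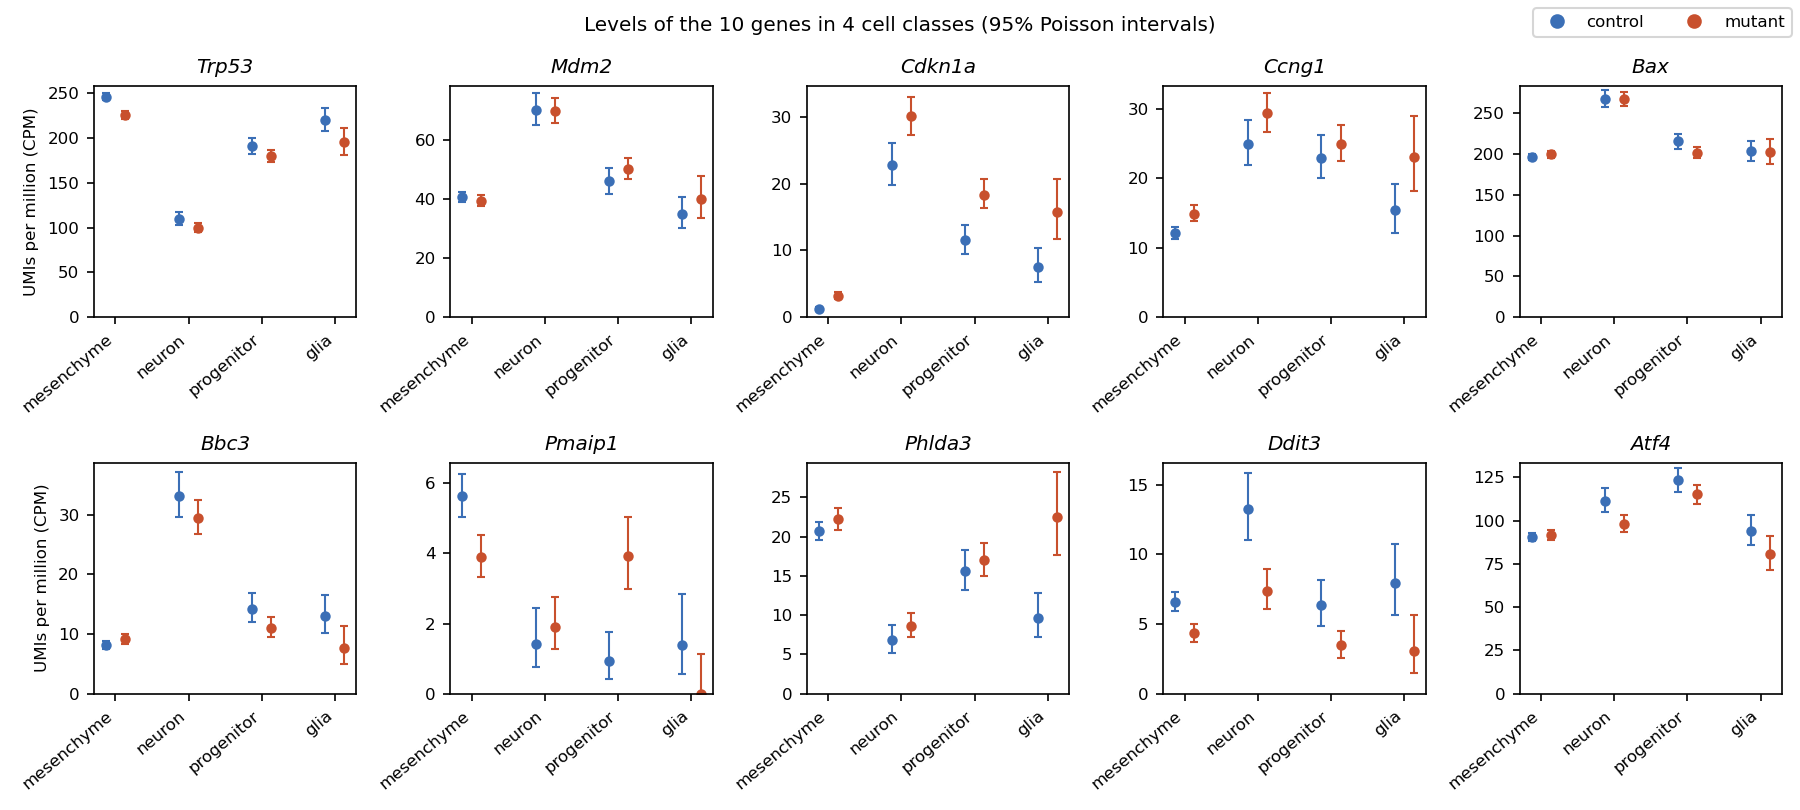
Level of each of the 10 genes in CPM (vertical axis, linear from 0) in mesenchyme-, neuron-, brain progenitor- and glia-like cells of the control (blue) and mutant (red) library; bars are 95% Poisson intervals of the summed UMIs. Cdkn1a stands at 1.22 CPM in control mesenchyme and at 22.7 CPM in control neurons, while Trp53 is lowest in neurons, with 110 CPM in the control library.

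Within the larger mesenchyme clusters, Pmaip1 was highest in frontonasal-like and Phlda3 in mural-like cells. Pmaip1 (chromosome 18, 66458533 to 66465565), which encodes the BH3-only protein NOXA, had 15.4 CPM in the 1197 control cells of the frontonasal-like cluster and 12.9 CPM in its 736 mutant cells. The 5 other larger mesenchyme clusters as 1 sum had 0.740 CPM in the control and 0.662 CPM in the mutant library. The frontonasal-like cells lay above them by 20.8-fold (log2 4.38, 3.82 to 4.99) in the control library and by 19.5-fold (4.29, 3.61 to 5.04) in the mutant library. Of 329 control Pmaip1 UMIs in mesenchyme-like cells, 297 were in this cluster, as were 149 of 171 in the mutant library. Pmaip1 was the only one of 9 genes tested that was higher there by 1.5-fold or more in both libraries, against 1.62% of all 11109 genes. The clusters were cut from the same cells, although without these genes, so the regional values are a description.

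The next highest value of Pmaip1 in the larger clusters was 3.08 CPM from 12 UMIs in control mural-like cells, and maxillary-like cells had 0.458 CPM from 6 UMIs in the control and 0.804 CPM from 8 UMIs in the mutant library. If each cell were thinned to 5000 UMIs, a Pmaip1 UMI would be left on average in 7.13% of control and 6.32% of mutant frontonasal-like cells, against 0.366% and 0.0552% of mandibular-like cells. Without thinning, the shares were 14.5% and 12.1% against 1.18% and 0.247%. The Pmaip1 UMIs were not confined to a few cells, since the 10 richest held 16.8% of them in the control and 27.5% in the mutant library.

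Phlda3 (chromosome 1, 135766119 to 135769136) was highest in mural-like cells, with 36.1 CPM (30.4 to 42.6) in the control and 39.1 CPM (33.2 to 45.8) in the mutant library, against 19.6 and 20.6 CPM in the other larger mesenchyme clusters. It was the only gene of 9 tested that was higher in mural-like cells by 1.5-fold or more in both libraries. That share is near the 10.9% of all genes. Cdkn1a, under the minimum of 100 UMIs, had larger log2 ratios, 2.10 (1.22 to 2.91) and 2.03 (1.34 to 2.69), against 0.89 and 0.92 for Phlda3. Pmaip1 was the only one of the 9 that was lower, against 5.2%, where the other clusters include the frontonasal-like one. Mural-like cells had 3.08 and 2.01 CPM of Pmaip1 from 12 and 8 UMIs. Maxillary-like cells had less, 0.458 and 0.804 CPM, as had mandibular-like cells, 0.804 and 0.151 CPM. Of the named regions, frontonasal-like cells came next for Phlda3, with 24.0 and 25.2 CPM, and the maxillary-like cells had 15.5 and 17.5 CPM. Cdkn1a had 4.36 CPM from 17 UMIs in control and 7.02 CPM from 28 UMIs in mutant mural-like cells, and at most 3.12 CPM in the frontonasal-, maxillary- and mandibular-like clusters. Trp53 was lowest of the named regions in mural-like cells, with 217 and 172 CPM.

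**Figure D2:**
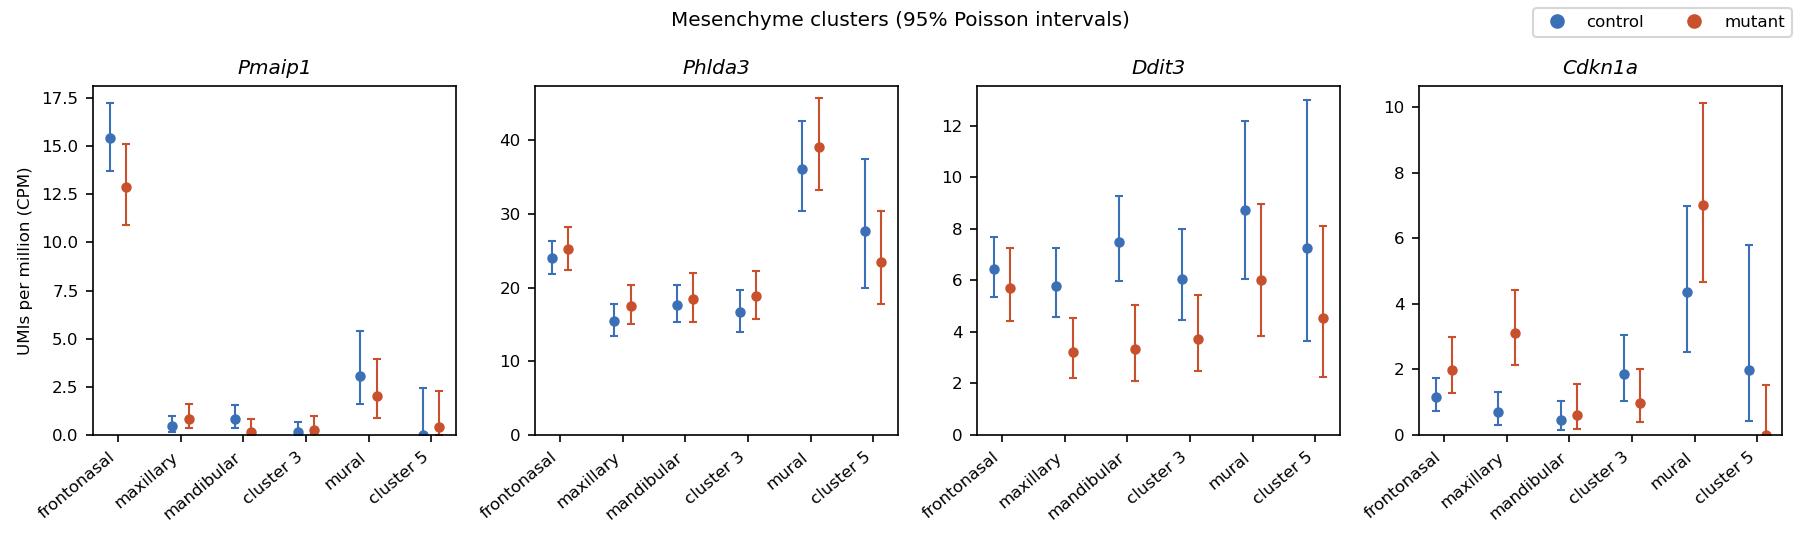
CPM (vertical axis, linear from 0) of Pmaip1, Phlda3, Ddit3 and Cdkn1a in the 6 larger mesenchyme clusters of the control (blue) and mutant (red) library, with 95% Poisson intervals. Pmaip1 stands at 15.4 and 12.9 CPM in the frontonasal-like cluster and at 3.08 CPM or less in every other one shown.

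Mutant and control cells were then compared within each class. A gene counts as different below where the libraries differed by 1.5-fold or more and held at least 100 UMIs together. By this rule 2 of 10 genes differed in mesenchyme-like cells, against 4.21% of all 12561 genes. In neuron-like cells 1 of 9 differed, against 2.8% of all genes, in brain progenitor-like cells 2 of 9, against 2.18%, and in glia-like cells 1 of 6, against 11.0%. The median log2 ratio of those with at least 100 UMIs was 0.02 in mesenchyme-like, -0.01 in neuron-like, -0.08 in brain progenitor-like and 0.09 in glia-like cells, beside 0.02, 0.01, -0.01 and 0.03 over all genes tested. With the genes of fewer UMIs counted in, wherever both libraries had any, it was 0.02, -0.01, 0.02 and -0.01.

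Cdkn1a was higher in the mutant library in each class. In mesenchyme-like cells it had 71 control and 140 mutant UMIs, and its log2 ratio was 1.39 (0.97 to 1.82). Of the mutant UMIs, 44 came from 8 of 80 cells of a small cluster of unusually rich barcodes, with a median of 27080 UMIs and a mixture of mesenchyme and brain genes, in which the control library had 0 UMIs in 41 cells. Without this cluster and a cluster of shallow barcodes the ratio was 0.84 (0.38 to 1.31), from 71 and 93 UMIs. Maxillary-like cells had 9 control UMIs (0.686 CPM) and 31 mutant UMIs (3.12 CPM), and mandibular-like cells 5 and 4 UMIs. Frontonasal-like cells had 22 and 23 UMIs (1.14 and 1.99 CPM) and mural-like cells 17 and 28 UMIs (4.36 and 7.02 CPM). The unnamed mesenchyme clusters 3 and 5 went the other way, with 15 and 7 UMIs (1.85 and 0.968 CPM) and with 3 and 0 UMIs. A higher mutant value was thus not shared by all clusters. After thinning a Cdkn1a UMI was left on average in 0.588% (0.372 to 0.897) of control and 0.920% (0.586 to 1.33) of mutant mesenchyme-like cells, intervals that overlap, against 1.16% and 1.86% before thinning.

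Brain progenitor-like cells had 112 control and 281 mutant Cdkn1a UMIs, a log2 ratio of 0.68 (0.35 to 1.00). Of these, 18 and 105 UMIs were in the roof plate and choroid plexus-like cluster, and without that cluster the ratio was 0.26 (-0.11 to 0.64). Thinning each cell to 5000 UMIs gave 0.42, which is under 1.5-fold. Neuron-like cells had 0.40 (0.16 to 0.65), from 207 and 443 UMIs, which stayed under 1.5-fold, and 0.70 once the 10 richest cells of each library were left out. In glia-like cells the ratio was 1.07 (0.43 to 1.71) from 38 and 51 UMIs, under the minimum, and 0.14 without the 10 richest cells.

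Ddit3 was lower in the mutant library in each class. Mesenchyme-like cells had 386 control and 190 mutant UMIs, a log2 ratio of -0.61 (-0.87 to -0.36), and neuron-like cells 121 and 109 UMIs, a ratio of -0.84 (-1.23 to -0.46). Brain progenitor-like cells had 62 and 53 UMIs, with -0.88 (-1.44 to -0.33). In glia-like cells 40 and 10 UMIs gave -1.36 (-2.52 to -0.33), under the minimum. Across the mesenchyme the ratio ranged from -0.17 (-0.63 to 0.27) in frontonasal-like cells to -1.18 (-1.93 to -0.49) in mandibular-like cells. Thinned to 5000 UMIs per cell, Ddit3 had -0.57 in mesenchyme-like and -0.56 in brain progenitor-like cells, both just under 1.5-fold. Atf4, the factor upstream of Ddit3, had 90.6 and 91.8 CPM in mesenchyme-like cells, a ratio of 0.02 (-0.04 to 0.08), and -0.18 (-0.30 to -0.07) in neuron-like cells.

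Smaller differences lay under 1.5-fold. Ccng1 had log2 ratios of 0.31 (0.15 to 0.46) in mesenchyme-like, 0.23 (-0.003 to 0.47) in neuron-like, 0.12 (-0.12 to 0.37) in brain progenitor-like and 0.58 (0.11 to 1.06) in glia-like cells. Trp53 had -0.12 (-0.16 to -0.09), -0.14 (-0.26 to -0.03), -0.08 (-0.17 to 0.001) and -0.17 (-0.31 to -0.03) in the same order. Bax lay between -0.10 and 0.02 in all 4 classes. Mdm2 lay between -0.04 and 0.20, with every interval including 0. Of the 6 genes with at least 100 UMIs in every class, Trp53, Ccng1 and Phlda3 kept to 1 side of 0 in all 4, 3 of 6 against 24.3% of 7736 genes.

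Phlda3 passed the rule in glia-like cells, where 49 control UMIs or 9.69 CPM faced 73 mutant UMIs or 22.5 CPM, at a log2 ratio of 1.22 (0.67 to 1.77). In the other classes its ratio was 0.11 to 0.35. Bbc3 had -0.37 (-0.70 to -0.04) in brain progenitor-like cells and -0.76 (-1.49 to -0.08), from 66 and 25 UMIs, in glia-like cells. Among sensory ganglion neuron-like cells, 39 Bbc3 UMIs in 27 control cells faced 22 in 45 mutant cells, 62.1 and 27.8 CPM and a ratio of -1.16 (-1.98 to -0.37). Glia-like cells had 7 Pmaip1 UMIs in the control and 0 in the mutant library, for which 3 UMIs would be 0.925 CPM.

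Pmaip1 in the mesenchyme-like cells had 329 control and 171 mutant UMIs, a log2 ratio of -0.53 (-0.81 to -0.26). Frontonasal-like cells made up fewer of the mutant cells, 736 of 2853 against 1197 of 3791 in the control library. Within that cluster the ratio was -0.26 (-0.55 to 0.03), and with the cluster shares held at the mean of the libraries it was -0.28 over the mesenchyme.

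**Figure D3:**
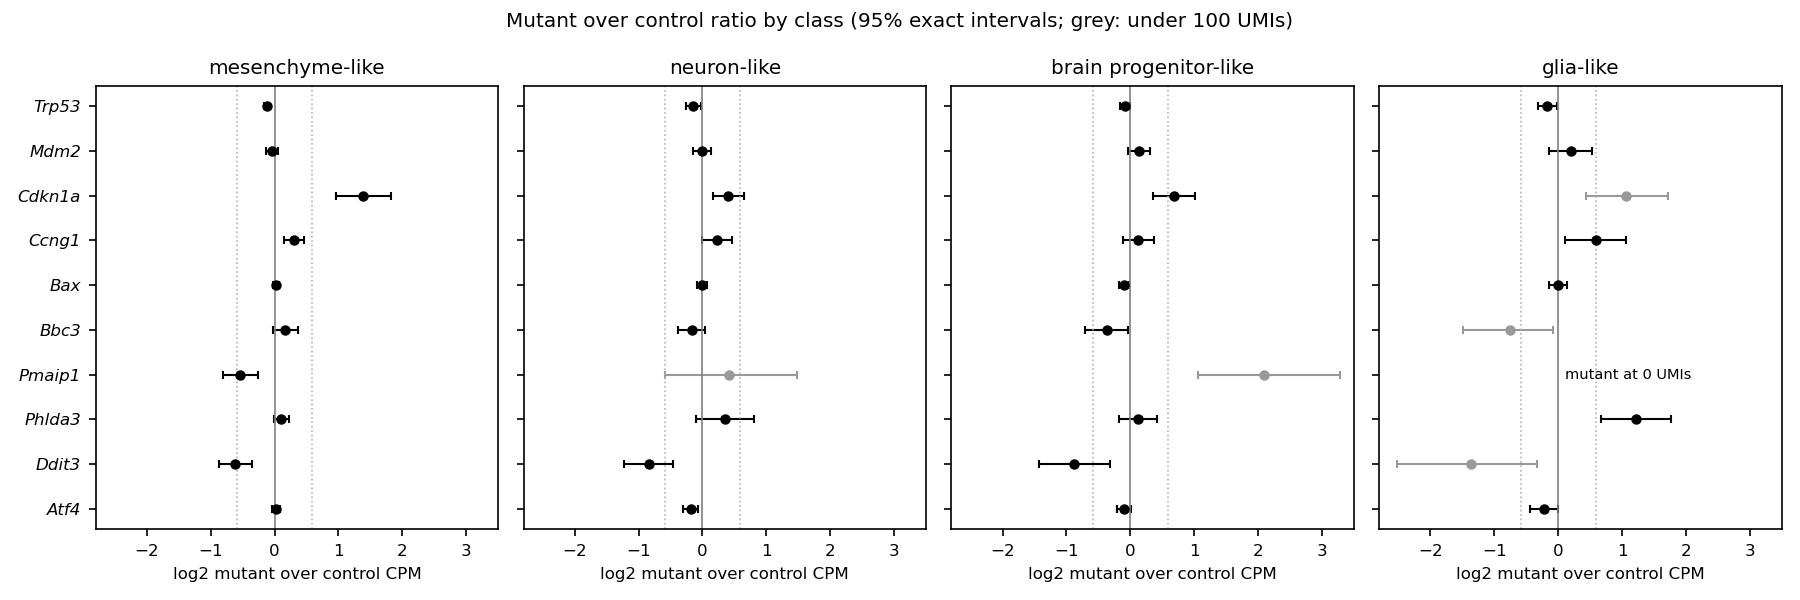
Log2 ratio of mutant over control CPM (horizontal axis) for the 10 genes in the 4 classes, with exact 95% intervals; dotted lines mark 1.5-fold and grey points had under 100 UMIs. Cdkn1a lies above 0 and Ddit3 below 0 in all 4 panels, and the median of the genes with at least 100 UMIs is between -0.08 and 0.09.

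Neural clusters differed in where the mutant library stood out. The roof plate and choroid plexus-like cluster held 45 control and 77 mutant cells. Cdkn1a had 18 UMIs or 29.5 CPM there in the control and 105 UMIs or 98.7 CPM in the mutant, with a log2 ratio of 1.74 (1.01 to 2.55). Mdm2 had 19 UMIs or 31.2 CPM and 70 UMIs or 65.8 CPM, a ratio of 1.08 (0.33 to 1.89). Pmaip1 had 1 and 28 UMIs, 1.64 and 26.3 CPM, with a ratio of 4.01 (1.41 to 9.36). Ccng1 had 26.2 and 41.4 CPM, a ratio of 0.66 (-0.20 to 1.58), and Trp53 was lower in the mutant library, with 133 and 94.0 CPM and a ratio of -0.50 (-0.94 to -0.06). Bax, the death effector, had 206 and 201 CPM, and Atf4 82.0 and 59.2 CPM with -0.47 (-1.03 to 0.10).

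Of the genes with at least 100 UMIs in that cluster, 1 of 4 differed by 1.5-fold, against 9.28% of all 2877 genes. With at least 30 UMIs, 3 of 6 did, Mdm2, Cdkn1a and Ccng1, against 20.3% of all 7096 genes. This cluster was singled out after its values were seen. Its cells also differed in their markers. Ttr, a choroid plexus gene, had 121 CPM in the control and 7353 CPM in the mutant library, while Lmx1a had 60.7 and 65.8 CPM, Wnt1 549 and 319 CPM and Rspo1 423 and 316 CPM. Of the 12 proliferation genes with at least 100 UMIs there, 6 were lower in the mutant library by 1.5-fold and 0 higher, against the same 9.28% of all genes in either direction, and their median log2 ratio was -0.57. Mki67 had 215 and 131 CPM, while Ccnd2 had 759 and 858 CPM, and all 15 genes of the list together had 3303 and 2674 CPM. Cdkn1c, another cyclin-dependent kinase inhibitor, had 788 and 1552 CPM. The cells were then divided by their Ttr UMIs, a division also chosen after values were seen.

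Most of the Ttr was in 15 mutant cells and 1 control cell with at least 10 Ttr UMIs. The 15 mutant cells held 64 of the 105 Cdkn1a UMIs, 271 CPM (209 to 346), and 0 Pmaip1 UMIs. They also held 0 Phlda3 UMIs and 1 Bbc3 UMI. Ccng1 had 21.2 CPM (6.88 to 49.5) in these 15 cells, Bax 153 CPM (107 to 211) and Mdm2 106 CPM (68.6 to 156). The other 62 mutant cells had 49.5 CPM (35.6 to 67.2) of Cdkn1a, against 29.0 CPM (16.9 to 46.4) in the other 44 control cells, intervals that overlap. All 28 mutant Pmaip1 UMIs were in these 62 cells, in 5 of them, with up to 11 in a cell. Mdm2 had 54.4 CPM (39.7 to 72.8) in the 62 mutant cells and 30.7 CPM (18.2 to 48.5) in the 44 control cells. Ccng1 had 47.1 CPM (33.5 to 64.4) and 27.3 CPM (15.6 to 44.3) there, and Bax 215 and 210 CPM. Phlda3 had 2 UMIs in the 62 mutant and 3 in the 44 control cells, and Bbc3 had 3 and 6.

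Outside that cluster, Cdkn1a was higher in mutant inhibitory neuron-like cells, with 13.6 and 38.7 CPM from 6 and 49 UMIs and a ratio of 1.51 (0.29 to 3.03). Of the 49 mutant UMIs, 24 came from 1 inhibitory neuron-like cell. Sensory ganglion neuron-like cells were high in both libraries, with 57.4 and 65.8 CPM from 36 and 52 UMIs, and 55.6% of control and 51.1% of mutant cells had a Cdkn1a UMI, at medians of 21071 and 17340 UMIs per cell. After thinning these shares were 23.5% (8.62 to 42.3) and 26.2% (13.9 to 42.0).

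**Figure D4:**
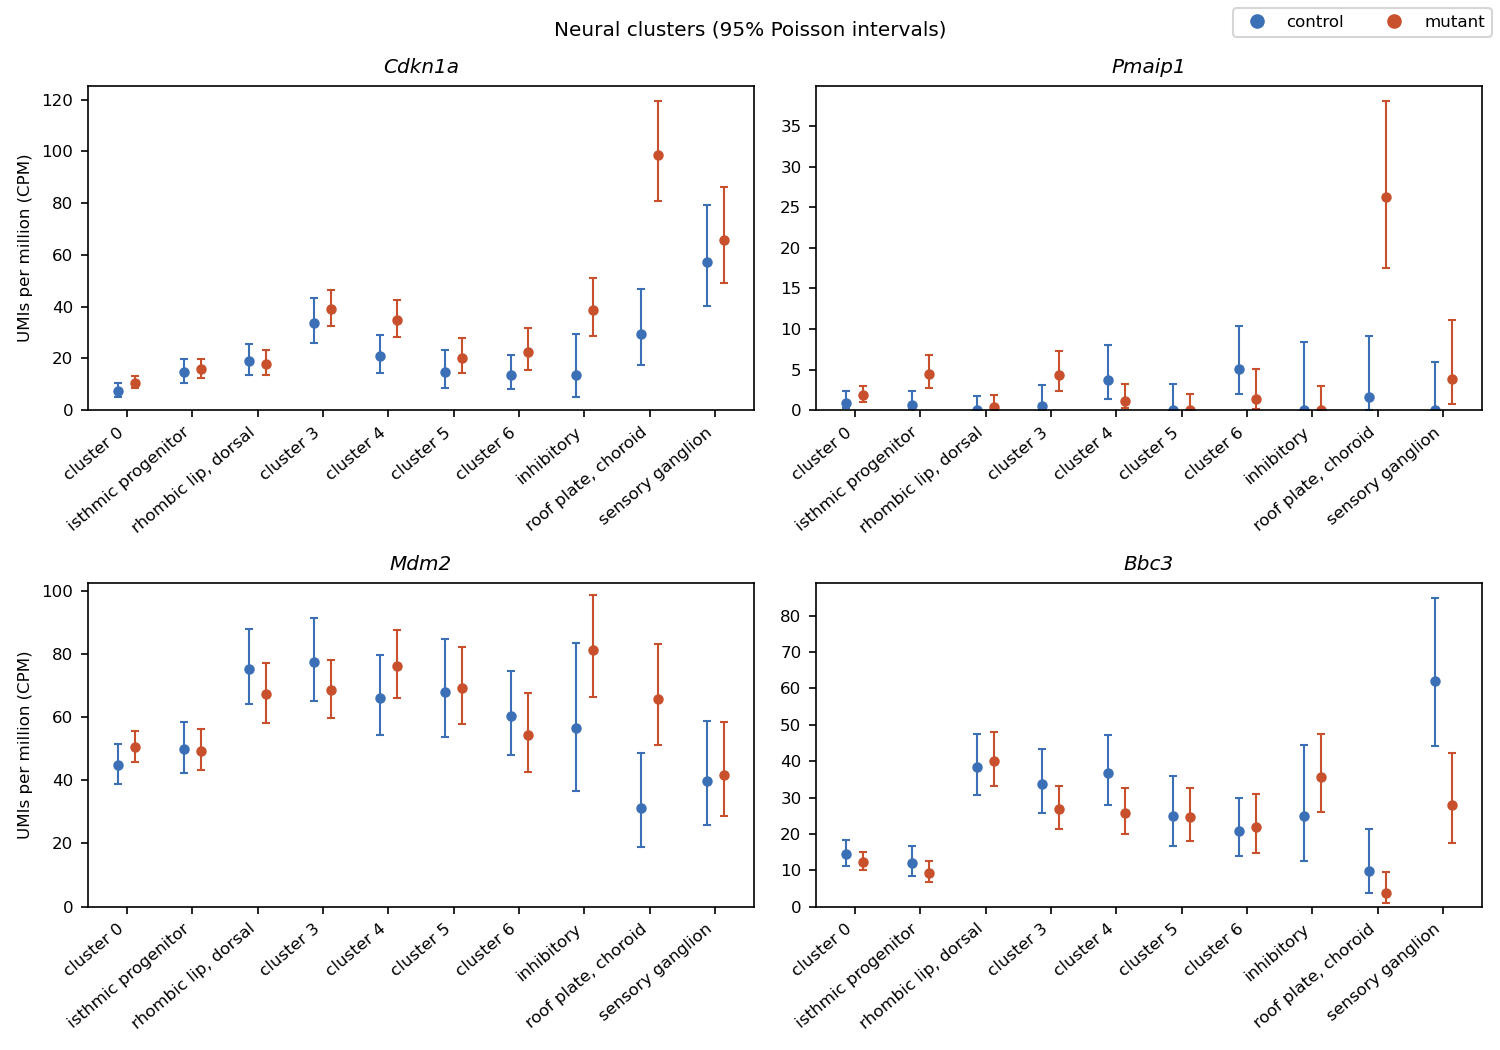
CPM (vertical axis, linear from 0) of Cdkn1a, Pmaip1, Mdm2 and Bbc3 in 10 neural clusters of the control (blue) and mutant (red) library, with 95% Poisson intervals. In the roof plate and choroid plexus-like cluster Cdkn1a stands at 29.5 and 98.7 CPM and Pmaip1 at 1.64 and 26.3 CPM, and in sensory ganglion neuron-like cells Bbc3 stands at 62.1 and 27.8 CPM.

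Mesenchyme-like cells with and without Cdkn1a UMIs were then compared for the other genes, as sums over cells, leaving out the rich and the shallow cluster. Cdkn1a was absent from 3665 control and 2684 mutant cells, and 7 control and 10 mutant cells had at least 3 of its UMIs. In those few cells Ccng1 had 117 CPM (62.0 to 199) in the control and 230 CPM (162 to 318) in the mutant library, against 11.7 and 13.4 CPM in the cells with no Cdkn1a UMI. Phlda3 had 161 CPM (95.6 to 255) and 199 CPM (136 to 281), against 20.3 and 21.3 CPM. Bax had 439 CPM (325 to 580) and 517 CPM (412 to 641), against 196 and 196 CPM. Bbc3 had 35.8 CPM (9.76 to 91.8) and 74.7 CPM (38.6 to 130), against 8.01 and 8.59 CPM.

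Ccng1, Phlda3, Bax and Bbc3 were thus each higher in the sum over these rare mesenchyme-like cells, in both libraries. Such sums over few cells do not show whether single cells were high for several of these genes. Mdm2 had 53.8 CPM (19.7 to 117) and 93.4 CPM (52.3 to 154) in the cells with at least 3 Cdkn1a UMIs, above the 40.6 and 38.9 CPM of the others only in the mutant library. Atf4 had 161 CPM (95.6 to 255) and 74.7 CPM (38.6 to 130), with no common direction, and Ddit3 had 1 UMI in each library. The 23 other p53 targets on the list together had 752 CPM (600 to 932) and 1046 CPM (894 to 1217), against 315 and 324 CPM in cells with no Cdkn1a UMI. Of these 23, 17 in the control and 16 in the mutant library were higher in the cells with at least 3 Cdkn1a UMIs. No share over all genes was available for these counts, which rest on 84 and 168 UMIs. Ak1 counts as higher in the control from 1 UMI. Among other lists, 11 and 8 of 17 listed genes known to answer to cell dissociation were higher. So were 8 and 11 of 16 genes of the unfolded protein response, and 4 and 4 of the 12 p53 regulators. Plk2 had 80.6 CPM (36.9 to 153) from 9 UMIs and 162 CPM (106 to 237) from 26, against 36.1 and 40.1 CPM. Dcxr had 44.8 CPM (14.5 to 105) from 5 UMIs and 125 CPM (76.1 to 192) from 20, against 5.81 and 6.17 CPM. Xpc had 0 CPM (0 to 33.05) and 12.5 CPM (1.51 to 45.0), from 0 and 2 UMIs, against 22.6 and 22.2 CPM. Ddb2 had 0 UMIs in both libraries and Sesn1 had 1 in each. The intervals of these 3 genes included the level in cells with no Cdkn1a UMI, so no difference was detectable. Dcxr, Xpc, Ddb2 and Sesn1 were named after their values were seen. The 12 p53 regulators had 403 CPM (294 to 539) and 374 CPM (285 to 481), against 418 and 404 CPM.

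The depth of the rare cells was close to that of the rest, with medians of 16350 and 15340 UMIs against 14490 and 14280 UMIs, and their median mitochondrial share was 4.11% and 5.00% against 4.34% and 4.61%. The grouping of cells by Cdkn1a was chosen after values were seen.

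**Figure D5:**
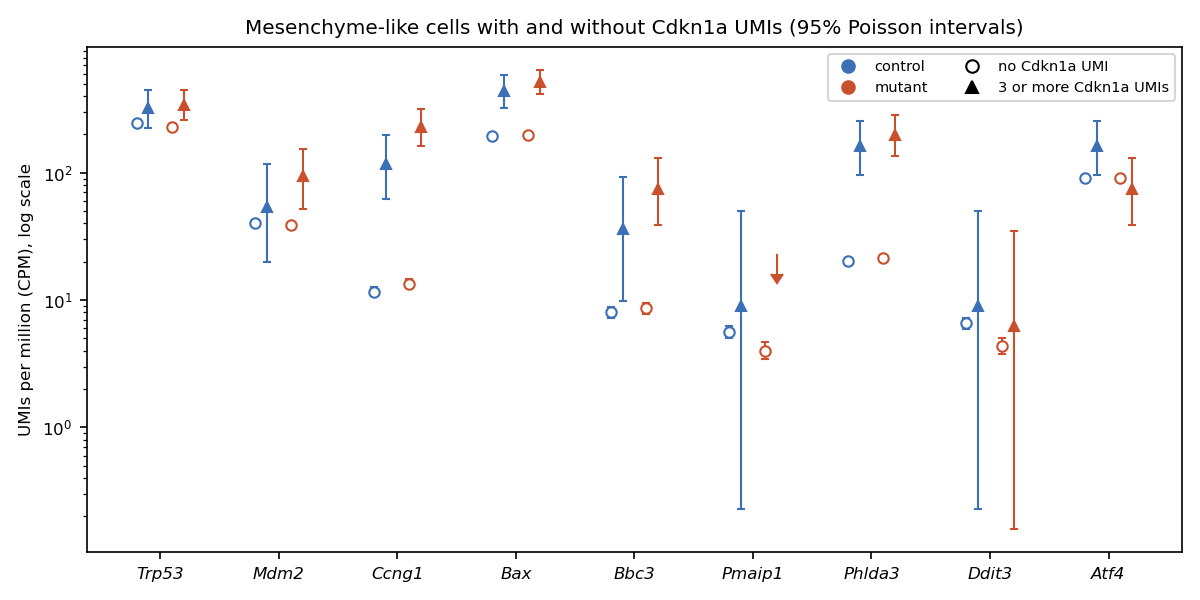
CPM on a log scale (vertical axis) of the other 9 genes in mesenchyme-like cells with no Cdkn1a UMI (open circles) and with 3 or more (triangles), control in blue and mutant in red, with 95% Poisson intervals; an arrow marks the upper limit where no UMI was found. Ccng1 lies at 117 and 230 CPM in the few Cdkn1a-rich cells and at 11.7 and 13.4 CPM in the others.

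Brain progenitor-like cells, of which 11 control and 32 mutant cells had at least 3 Cdkn1a UMIs, also had Ccng1, Phlda3, Bax and Bbc3 higher in such cells of both libraries, and Mdm2 with them. Ccng1 had 320 CPM (236 to 423) and 164 CPM (129 to 205), against 17.4 and 19.4 CPM in cells with none. Phlda3 had 111 CPM (64.6 to 178) and 87.3 CPM (62.4 to 119), against 13.4 and 13.5 CPM. Bax, with 606 CPM (490 to 743) and 358 CPM (305 to 417) against 205 and 193 CPM, differed by a smaller factor. Bbc3 had 58.7 CPM (26.8 to 111) and 28.4 CPM (15.1 to 48.5), against 13.7 and 10.8 CPM, and Mdm2 117 CPM (69.6 to 186) and 120.1 CPM (90.5 to 156), against 45.6 and 47.5 CPM. The share in G1 was also higher in these cells, 36.4% and 59.4% against 18.8% and 17.6%, and its part in the differences was not tested. Of the 112 control and 281 mutant Cdkn1a UMIs of this class, 94 and 176 lay outside the roof plate and choroid plexus-like cluster. The part of cluster make-up in the differences was not tested either.

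In neuron-like cells, of which 20 and 43 had at least 3 Cdkn1a UMIs, Ccng1 and Phlda3 were higher in such cells of both libraries, while Bax, Bbc3 and Mdm2 were not. Ccng1 had 85.9 CPM (57.1 to 124) and 71.5 CPM (51.8 to 96.3), against 22.2 and 27.7 CPM, and Phlda3 33.7 CPM (16.8 to 60.4) and 79.8 CPM (58.9 to 106), against 4.08 and 4.99 CPM. Bax had 258 CPM (206 to 319) in the control, not above the 271 CPM of the other cells, and 379 CPM (332 to 432) in the mutant library, against 262 CPM. Mdm2 went the other way in the mutant library, with 46.6 CPM (30.9 to 67.3) against 73.0 CPM, and had 85.9 CPM (57.1 to 124) against 72.7 CPM in the control. Pmaip1 was higher in such cells of the mutant library, with 24.9 CPM (14.0 to 41.1) against 0.846 CPM, and had 1 UMI in those of the control. In glia-like cells, of which 3 and 8 had at least 3 Cdkn1a UMIs, the intervals of the other 9 genes included the level in cells with none in both libraries, so that no difference was detectable at this depth. Ccng1 had 46.3 CPM (9.55 to 135) and 44.9 CPM (14.6 to 105) there, against 15.7 and 23.1 CPM.

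Other genes of the pathways were compared over the mesenchyme-like cells. None of the 18 other p53 targets tested passed 1.5-fold in either direction, where 3.13% of all genes were higher and 1.08% lower in the mutant library. Their median log2 ratio was 0.09, with 11 of 18 above 0, where 57.0% of all genes tested were. Btg2, an antiproliferative gene, had 9.49 and 14.0 CPM with 0.56 (0.40 to 0.73), Ak1 4.40 and 5.80 CPM with 0.40 (0.14 to 0.65), and Aen, an apoptosis-enhancing nuclease, 38.3 and 34.5 CPM with -0.15 (-0.25 to -0.06). Of 9 p53 regulators tested, none passed 1.5-fold and 1 was above 0, against the same 57.0% of all genes, with a median of -0.05. Trp53bp1, which brings p53 and repair factors to DNA breaks, had 62.1 and 58.0 CPM with -0.10 (-0.17 to -0.02).

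Of 18 ATF4 targets tested 2 were higher by 1.5-fold, against 3.13% of all genes. Ddit4 had 30.5 and 47.9 CPM and a log2 ratio of 0.65 (0.56 to 0.74), and Vldlr 6.05 and 9.78 CPM and 0.70 (0.49 to 0.90). Ddit4 encodes an inhibitor of mTORC1 and Vldlr a lipoprotein receptor, and both also respond to signals other than ATF4. Slc7a11, the cystine transporter, had -0.30 (-0.54 to -0.06), and the median over the list was 0.04. None of 16 genes of the unfolded protein response passed 1.5-fold. Hsp90b1, an ER chaperone, had 769 and 862 CPM with 0.17 (0.145 to 0.19), and Hspa5 488 and 506 CPM with 0.05 (0.03 to 0.08).

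None of 17 genes of the BCL-2 family and caspases passed 1.5-fold. Bcl2, which blocks death, had 29.9 and 34.9 CPM with 0.22 (0.12 to 0.32), Casp9, an initiator caspase, 7.45 and 8.83 CPM with 0.24 (0.04 to 0.45), and Mcl1 107 and 108 CPM. Of 5 CDK inhibitors tested none passed 1.5-fold, and Cdkn1c had 648 and 738 CPM with 0.19 (0.17 to 0.21). The 15 proliferation genes together had 3164 and 3053 CPM, with none past 1.5-fold and Cdk1 at -0.22 (-0.26 to -0.18).

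In the other classes the 23 other p53 targets showed few differences. None of 13 tested in neuron-like and none of 17 in brain progenitor-like cells passed 1.5-fold. In glia-like cells 1 of 10 was higher and 2 were lower, where 11.0% of all genes differed in either direction. Those lower were Btg2, with 102.2 and 26.2 CPM and a log2 ratio of -1.96 (-2.31 to -1.63), and Plk2, a kinase gene, with 119.8 and 40.4 CPM and -1.57 (-1.85 to -1.29). Sesn1, which encodes the stress regulator sestrin 1, was the higher one, with 10.3 and 23.1 CPM and 1.17 (0.64 to 1.71), from 52 and 75 UMIs. Sesn1 was named after its values were seen. Btg2 and Plk2 thus lay on the other side of 0 from Cdkn1a and Phlda3 in the same cells.

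Of 14 genes known to answer to cell dissociation, 2 were higher by 1.5-fold in the mutant mesenchyme-like cells, against 3.13% of all genes. These were Hspb1 with 2.88 and 4.44 CPM and Junb with 1.28 and 1.98 CPM, and the list together had 2652 and 2443 CPM. The median mitochondrial share was 4.32% in control and 4.58% in mutant mesenchyme-like cells. The part of dissociation stress in the differences of Cdkn1a and Ddit3 was not tested. G1 cells were 21.7% of control and 27.1% of mutant mesenchyme-like cells, and with the phase shares held fixed the ratio of Cdkn1a was 1.36 and that of Ddit3 -0.64.

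Genes whose levels were most like those of each gene were sought over 48 points, the classes and clusters of both libraries, among 11330 genes with at least 500 UMIs. The points share cells, since a class contains its clusters, and depth. Trp53 was most like Rbm3 (Pearson's r of log2(CPM + 1) 0.945), Bbc3 most like Brsk1 (0.94), Bax most like Trappc4 (0.91) and Mdm2 most like Ddx5 (0.90). Ccng1 was most like Rmst (0.86), Cdkn1a most like Erbb4 (0.84), Ddit3 most like Zfp697 (0.83), Phlda3 most like Samhd1 (0.75) and Atf4 most like Crcp (0.71). Pmaip1 had no close match, with Pxdc1 at 0.58.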

How the data were processed

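Per the file headers, the authors made the deposited counts of UMIs, as whole numbers for each gene in each barcode, with Cell Ranger 6.0.0, and per the labels used mm10 (GRCm38). Whether counting used strand is not given in the sources used here. As in the study, barcodes were kept at 200 to 7500 genes and at most 10% mitochondrial UMIs. Libraries were integrated in Seurat 5.3.0 on 2000 variable genes and clustered (30 dimensions, resolution 0.05; mesenchyme 20 and 0.3; neural cells 0.2) with 133 genes kept out, the 10 genes included. Clusters were named "-like" from marker lists by a rule settled after they were seen. Doublets called by Scrublet (scanpy 1.11.5), 1.65% of control and 3.06% of mutant cells, were kept.

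UMIs were summed per library and class and given as CPM with exact Poisson intervals. Log2 ratios have exact conditional binomial intervals and shares Clopper-Pearson intervals, all at 95% and for counting error only. The intervals of the log2 ratios, but not the others, were tested on simulated data. With 1 library per group no test was made. A floor of 3 UMIs was set against 0. Thinning to 5000 UMIs was computed as its expectation over all draws, with shallower cells left out. The named genes were the 10 genes and, of each other list, the 3 with the highest control CPM in mesenchyme-like cells and up to 4 with the largest log2 ratio among those with at least 100 UMIs, of which some are printed. The 10 genes, lists and rules were chosen with earlier results of these data known. Alternatives to filtering, doublets, weighting, thinning, scaling (TMM, edgeR 4.0.16), clustering, composition and thresholds were tried, and 2 that leave out clusters were added after the values were seen.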

Additional observations from a re-analysis of the deposited data

Results flagged for a closer look

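Pmaip1 and Mdm2 differed in direction between cell groups, by intervals of the mutant over control log2 ratio that lay above 0 in one and below 0 in another. The difference between these groups was not tested. Pmaip1 had -0.53 in mesenchyme-like cells, and 2.08 in brain progenitor-like cells, 2.72 in the isthmic progenitor-like cluster, 2.98 in neural cluster 3 and 4.00 in the roof plate and choroid plexus-like cluster, where the control library had 1 to 9 UMIs. Mdm2 had -0.27 in mandibular-like cells, against 0.56 in mesenchyme cluster 5, led by Cyp26a1 and Shisa3, and 1.08 in the roof plate and choroid plexus-like cluster.

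Cdkn1a also differed between the 523 control and 476 mutant barcodes that the filter removed. These included 6 control and 18 mutant barcodes over the gene limit, which held 337289 of 1228753 control and 1058374 of 1954406 mutant UMIs removed. Cdkn1a had 5 UMIs or 4.07 CPM there in the control and 42 UMIs or 21.5 CPM in the mutant, with a log2 ratio of 2.40 (1.07 to 4.10). The mutant UMIs came from 12 barcodes, and the 10 richest held 40 of them. Of the Cdkn1a UMIs, 3 and 18 were in barcodes over the mitochondrial limit, the 18 in 5 barcodes with up to 9 in 1. Trp53 had 134 and 111 CPM, Bax 170 and 199 CPM and Ddit3 3.25 and 4.61 CPM in the removed barcodes.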

How the results depend on the processing

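No paired analysis was possible because each group had 1 library. Each count of genes past 1.5-fold rests on few genes. In mesenchyme-like cells the 2 became 1 with cells thinned to 5000 UMIs. In neuron-like cells the 1 became 2 with equal weight per cell and without the 10 richest cells, and 3 at the lower of the fold thresholds tried. In brain progenitor-like cells the 2 became 1 with equal weight per cell and without the roof plate and choroid plexus-like cluster, and 0 with thinned cells. In glia-like cells the 1 became 2 with all deposited barcodes, with equal weight per cell, with thinned cells, with classes at resolution 0.4 and at that lower threshold, and 4 with at least 30 UMIs. The median log2 ratios over all genes with UMIs in both libraries stayed between the medians of the genes' lower and upper limits in each alternative run. Of 399 values of single genes under an alternative, 392 stayed within the interval of the value reported and 7, of which 6 were of Cdkn1a, moved outside it, and no called value changed sign. Cluster shares could not be held fixed in glia-like cells, which had no clusters of their own. Ddit3 was lower in the mutant library in each class under each alternative, from -0.56 to -1.42, and Cdkn1a higher, from 0.14 to 1.48. The causes of these changes were not tested.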
